A study of Mus musculus with 6 samples.

Results

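Integrin adhesion receptors were followed through 10 subunit genes chosen by name, Itga4, Itga5, Itga6, Itgal, Itgav, Itgb1, Itgb2, Itgb3, Itgb5 and Itgb7. Each name matched a single row of the 21959 genes in the deposited table, and all 10 passed the filter on low counts, after which 10177 genes were tested. Expression was measured by RNA-seq in wild-type primary mouse bone marrow-derived macrophages (BMDMs), which are grown from marrow precursors in culture. They had spent 24 h in an equal mixture of fresh medium with medium conditioned for 48 h by alveolar macrophages from mice of 8 to 12 weeks. These alveolar macrophages were either negative (libraries N051, N052 and N053) or positive (P051, P052 and P053) for HTR2C, a serotonin receptor, so there were 3 libraries a group. All BMDMs received conditioned medium, the labels do not say whether libraries came from separate cultures or animals, and p-values therefore describe the spread between these libraries, which may be technical.

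Integrins are the receptors by which macrophages hold on to other cells, to matrix and to opsonised or dying material. Each receptor joins an alpha to a beta chain, and the combination sets the ligand. Talin and kindlin bind the beta tail to switch the receptor on, and the bound receptor then signals through focal adhesion and Src family kinases. In macrophages the leukocyte integrins with the Itgb2 chain, the fibronectin and laminin receptors with the Itgb1 chain, and the Itgav receptors for vitronectin and for latent TGF-beta are best known.

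Libraries held 12843971 to 16031723 counts. For counting error only, a count of 0 allows at most 0.187 to 0.234 CPM (counts scaled to the size of the library). That limit uses total counts, whereas the CPM given elsewhere are also scaled with TMM factors, so for them it is approximate. Of the pairs of libraries, N052 and P051, from different groups, were the most alike (r = 0.980 over log2 CPM of the tested genes). The macrophage markers summed to 25476 to 27454 CPM with HTR2C-negative and 23914 to 26758 CPM with HTR2C-positive medium, and of the 12 listed markers Cd163 alone was near 0, at most at 0.28 CPM. Other cells that carry integrins were sought by their markers. The neutrophil list summed to 878 to 1075 CPM with negative and 1026 to 1275 CPM with positive medium, with 2 of 12 markers, Ly6g and Cxcr2, at 0 in every library. The platelet and megakaryocyte list summed to 453 to 487 and 461 to 628 CPM and consisted mostly of Pf4, with Gp1bb at 0. The T and NK cell list summed to 16.8 to 19.4 and 13.1 to 20.3 CPM, nearly all of it Lck, with Cd3d, Cd3e and Cd3g at most at 0.34 CPM. The mast cell list summed to 3.85 to 7.43 and 2.78 to 3.48 CPM, with 3 of 6 markers, the proteases Mcpt4, Cma1 and Tpsb2, at 0. The osteoclast list summed to 105 to 121 and 90.5 to 116 CPM, the dendritic cell list to 3.80 to 8.94 and 7.44 to 10.04 CPM, and the B cell list to 1.08 to 2.03 and 2.06 to 2.71 CPM. The stromal list summed to 61.4 to 70.4 and 63.6 to 80.2 CPM, the endothelial list to 13.5 to 17.2 and 15.2 to 18.0 CPM, the alveolar macrophage list to 63.3 to 75.1 and 57.4 to 81.1 CPM, and lung epithelial markers were at most at 0.73 CPM together.

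Between the media, 0 of the 10 integrin genes passed after adjustment for all genes. With edgeR's quasi-likelihood test 0 of 10177 genes had an adjusted p under 0.05 (0.00%). Before adjustment, 4 integrin genes had p under 0.05, all with higher values in HTR2C-positive medium, namely Itgb7, Itga5, Itgal and Itgb5, and 0 were lower. Over all tested genes 7.90% were higher and 8.71% lower at that threshold. In 3 of the 10, Itgb7, Itgal and Itgb5, the positive libraries all lay above the negative ones, against 10.9% of all tested genes. The abundant chains Itgb2 and Itgb1 and the chains Itgav and Itga4 had values close to each other in the groups. A positive fold change was found in 8 of 10, with a median of 0.27 on the log2 scale, where 52.1% of all tested genes were positive and the median was 0.02. Of the 4, Itgal and Itgb5 had unadjusted p over 0.05 without N051 and also without P052, and Itgal without N053. After adjustment DESeq2 called 0 of the 10, where it called 5.77% of the genes to which it gave an adjusted p. It gave Itgb3 and Itgb7 no adjusted p. With limma-voom 0 of the 10 were called. With no count filter 2 were called, Itga5 and Itgb7 (2.84% of all genes), without N052 Itga5 alone (1.97%), without P051 0 (1.80%), and without both N052 and P051 Itga5, Itgal and Itgb7 (10.9%). These are bulk libraries, in which fewer cells of a type and less RNA per cell cannot be told apart.

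**Figure D1:**
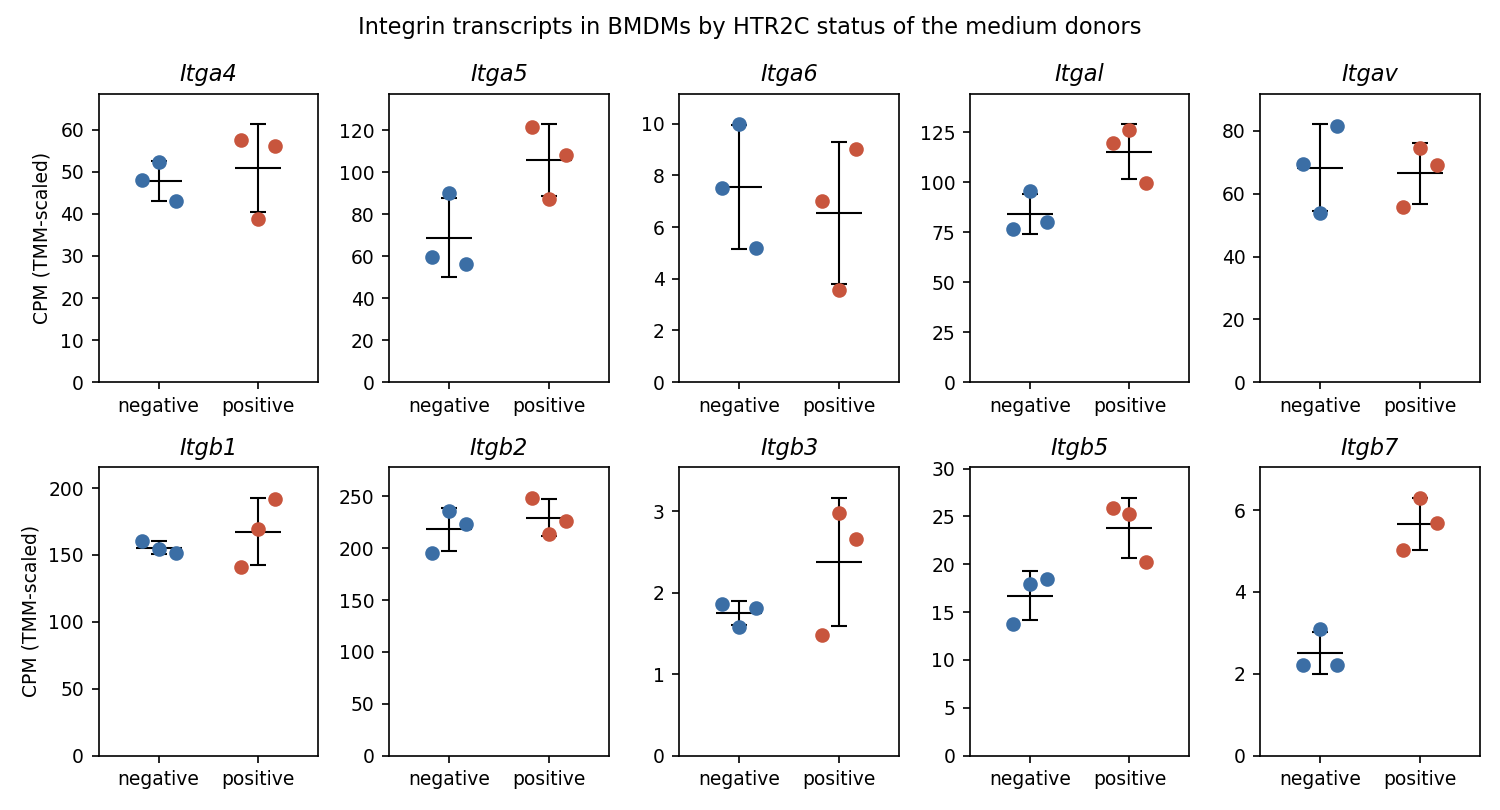
CPM (scaled with TMM factors, linear axes from 0) of the 10 integrin genes in each library, with points for single libraries ordered by their number, and bars for the mean and SD of 3 libraries. The groups do not overlap for Itgal, Itgb5 and Itgb7, where the highest negative library is at 95.5, 18.4 and 3.09 CPM and the lowest positive one at 99.9, 20.2 and 5.02 CPM.

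Levels spanned a wide range. In fragments per kilobase, scaled to depth (FPKM), the scale on which genes can be set side by side, Itgb2 averaged 74.0 over the 6 libraries and Itgb1 39.7, followed by Itga5 at 18.1, Itgal at 15.4, Itgav at 6.23, Itgb5 at 5.78, Itga4 at 3.57, Itgb7 at 1.51, Itga6 at 0.782 and Itgb3 at 0.349. Itgb2 and Itgb1 did not overlap each other or the next gene in any library. The ranges of Itga5 and Itgal overlapped, as did Itgav with Itgb5, Itgb5 with Itga4, Itgb7 with Itga6 and Itga6 with Itgb3. Within each library Itgb5 lay above Itga4, while the order within the other neighbours changed between libraries. Itgb2 ranked 592 and Itgb3 8801 among the 21959 genes by mean FPKM.

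Promoter sequence is shown for the 3 genes with higher values that have an entry in the RefSeq table (Itga5, Itgb5 and Itgb7), and for Itgb1 as an abundant chain whose groups overlapped. The windows are the 250 bases before the annotated start on GRCm38.p6, written in the direction of transcription, at chr15:103366792-103367041 (minus strand) for Itga5, chr16:33829415-33829664 (plus strand) for Itgb5, chr15:102231936-102232185 (minus strand) for Itgb7 and chr8:128685404-128685653 (plus strand) for Itgb1. Capitals mark matches, on either strand, to GAGGAA (the PU.1 core), GGGCGG (the SP1 box), TGTGGT (the RUNX core), TGANTCA (the AP-1 site), CCAAT or TATAAA (the TATA box).
Itga5: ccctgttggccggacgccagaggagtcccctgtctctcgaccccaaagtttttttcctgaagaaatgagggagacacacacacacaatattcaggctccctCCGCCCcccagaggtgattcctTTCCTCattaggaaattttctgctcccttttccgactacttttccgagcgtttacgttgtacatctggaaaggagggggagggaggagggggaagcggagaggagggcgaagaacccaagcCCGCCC
Itgb5: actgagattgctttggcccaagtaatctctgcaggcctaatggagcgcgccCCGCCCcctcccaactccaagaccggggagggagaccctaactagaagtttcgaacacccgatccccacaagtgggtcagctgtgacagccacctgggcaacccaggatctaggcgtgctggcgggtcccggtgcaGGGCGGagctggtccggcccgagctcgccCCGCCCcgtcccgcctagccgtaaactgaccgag
Itgb7: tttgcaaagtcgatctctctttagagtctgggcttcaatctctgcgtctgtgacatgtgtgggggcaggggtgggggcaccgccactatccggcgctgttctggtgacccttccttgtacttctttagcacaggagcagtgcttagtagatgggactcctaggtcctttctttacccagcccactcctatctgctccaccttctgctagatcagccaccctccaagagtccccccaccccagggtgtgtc
Itgb1: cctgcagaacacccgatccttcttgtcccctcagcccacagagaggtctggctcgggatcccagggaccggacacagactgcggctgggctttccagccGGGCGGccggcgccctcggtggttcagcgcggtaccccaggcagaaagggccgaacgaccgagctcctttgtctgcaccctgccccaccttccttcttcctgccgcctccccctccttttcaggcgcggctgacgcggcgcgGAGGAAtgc
The table held windows for 6 of the 10 genes. Itgb5 had 3 SP1 matches, Itga5 had 2 and a PU.1 match, Itgb1 had 1 of each, and Itgb7 had none of the 6 motifs. Among 32536 windows of the same length in the table, 33.0% held the SP1 letters, 23.4% the PU.1 letters, 14.0% the RUNX letters, 6.73% the AP-1 letters, 33.8% CCAAT and 12.3% TATAAA. The GC content of the windows was 55.6% for Itga5, 65.2% for Itgb5, 56.0% for Itgb7 and 68.0% for Itgb1, with a median of 52.4% over all windows. These matches are letters only, and binding was not measured.

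The leukocyte integrins share the Itgb2 chain. Itgb2 (chromosome 10, 77366086 to 77401542, GRCm39 as in the deposited table) was at 195, 236 and 224 CPM with HTR2C-negative medium (N051, N052 and N053) and 249, 214 and 227 CPM with HTR2C-positive medium (P051, P052 and P053). The groups overlapped, with N051 lowest and P051 highest. The log2 ratio of positive to negative medium was 0.07 (standard error 0.15, 95% interval -0.24 to 0.39, adjusted p = 0.836). Itgal, the alpha chain of LFA-1, which binds ICAM proteins on other cells (chromosome 7, 126895432 to 126934310), was at 76.7, 95.5 and 80.3 CPM with negative and 119, 126 and 99.9 CPM with positive medium. All 3 positive libraries lay above all 3 negative ones, though P053 lay close to N052. Itgal had a log2 ratio of 0.45 (standard error 0.16, 95% interval 0.12 to 0.79, adjusted p = 0.184). The partners of Itgb2 in complement receptors had overlapping groups. Itgam, which binds the complement fragment iC3b, was at 170 ± 26.4 and 184 ± 41.3 CPM (SD, n = 3), with a log2 ratio of 0.11 (standard error 0.19) that was -0.05 without P053. Itgax, also called CD11c, was at 7.54 ± 2.56 and 9.25 ± 2.12 CPM, a log2 ratio of 0.29 (standard error 0.29) that was 0.10 without N052 and 0.61 without N053. Neutrophils also carry these chains, and of their markers S100a9 (88.9 to 95.8 and 104 to 134 CPM) and Camp (12.8 to 14.1 and 16.6 to 20.6 CPM) lay higher with positive medium without overlap. Mmp8 lay lower, with 30.6 to 40.7 CPM in the positive libraries, below every negative one, and their part in the Itgal values was not tested.

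Itgb1 is the common beta chain of matrix receptors. Itgb1 (chromosome 8, 129412135 to 129459681) was at 161, 154 and 152 CPM with negative medium and 141, 170 and 191 CPM with positive medium. The negative libraries were close together, and the positive ones lay on both sides of them. Its log2 ratio was 0.11 (standard error 0.15, 95% interval -0.22 to 0.44, adjusted p = 0.766).

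Among its alpha partners, Itga5, the fibronectin receptor chain (chromosome 15, 103252713 to 103275190), was at 59.9, 90.3 and 56.5 CPM with negative and 121, 87.5 and 108 CPM with positive medium. N051 and N053 were low, P051 was highest, and N052 lay above P052, so the groups overlapped. The log2 ratio was 0.62 (standard error 0.20, 95% interval 0.19 to 1.04, adjusted p = 0.159). Without N052 it was 0.87 with an adjusted p of 0.0398 by edgeR, past the threshold, while the adjusted p without any other single library was 0.154 to 0.608. Without both N052 and P051 it was 0.77 (adjusted p = 0.000438 by edgeR). Those 2 libraries are the most alike pair, from different groups, and leaving out both called 10.9% of all tested genes.

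The other Itgb1 partners overlapped between the groups. Itga4, which binds VCAM1 and fibronectin, was at 48.1, 52.3 and 43.0 CPM with negative and 57.5, 38.8 and 56.2 CPM with positive medium, a log2 ratio of 0.09 (standard error 0.18, adjusted p = 0.837). Its gene span overlaps that of Cerkl on the opposite strand, which had 104 counts over the 6 libraries. Itga6, a laminin receptor chain, was at 7.51, 9.97 and 5.18 CPM and 7.02, 3.57 and 9.01 CPM. P052 was the lowest library for both Itga4 and Itga6. The log2 ratio of Itga6 was -0.21 with a wide 95% interval of -0.96 to 0.54 (adjusted p = 0.803).

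Itgav pairs with several beta chains to bind proteins with an RGD sequence. Itgav (chromosome 2, 83554741 to 83637260) was at 69.5, 53.9 and 81.4 CPM with negative and 55.8, 74.5 and 69.2 CPM with positive medium, a log2 ratio of -0.04 (standard error 0.18, 95% interval -0.43 to 0.35, adjusted p = 0.936). N052 and P051 were its lowest libraries. Itgb5, its partner in a vitronectin receptor that also takes part in the uptake of dying cells (chromosome 16, 33650035 to 33769708), was at 13.8, 17.9 and 18.4 CPM with negative and 25.9, 25.3 and 20.2 CPM with positive medium. The groups did not overlap, and N053 and P053 lay nearest each other. Itgb5 had a log2 ratio of 0.51 (standard error 0.19, 95% interval 0.09 to 0.92, adjusted p = 0.218). Itgb3, the partner of Itgav on osteoclasts, was low, with 21, 23 and 27 counts in the negative and 26, 45 and 44 in the positive libraries. At that depth its log2 ratio of 0.44 had a 95% interval of -0.49 to 1.36 (adjusted p = 0.640).

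Itgb8, the Itgav partner that activates latent TGF-beta, is not among the 10 and lay in the other direction. It was at 119, 94.3 and 118 CPM with negative and 71.2, 76.4 and 80.9 CPM with positive medium. Every positive library was below every negative one. The log2 ratio was -0.54 (standard error 0.15, adjusted p = 0.129), and DESeq2 gave an adjusted p of 0.0402.

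Itgb7, the beta chain that joins Itga4 in the gut-homing receptor of lymphocytes (chromosome 15, 102124430 to 102140379), had the smallest p of the 10. It was a low transcript, with 25, 45 and 33 counts in N051, N052 and N053 and 88, 95 and 94 in P051, P052 and P053. In CPM these were 2.21, 3.09 and 2.22 against 5.02, 6.29 and 5.68, so the lowest positive library lay well above the highest negative one. The means of 2.51 ± 0.508 and 5.66 ± 0.633 CPM differ 2.26-fold. The log2 ratio was 1.17 (standard error 0.31, 95% interval 0.50 to 1.83, adjusted p = 0.113). Its adjusted p by edgeR was 0.0455 with no count filter, where 2.84% of all genes were called. It was 0.0214 without both N052 and P051, the most alike pair, where 10.9% of all genes were called. The marker lists of T and NK cells and of mast cells, which also carry Itgb7, did not have their positive libraries above the negative ones (13.1 to 20.3 against 16.8 to 19.4 CPM, and 2.78 to 3.48 against 3.85 to 7.43 CPM). Those of the B cell list, another carrier, did (2.06 to 2.71 against 1.08 to 2.03 CPM), and the part of such cells was not tested. Its usual alpha partner besides Itga4, Itgae, had 0, 5 and 0 counts in the negative and 3, 3 and 4 in the positive libraries.

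**Figure D2:**
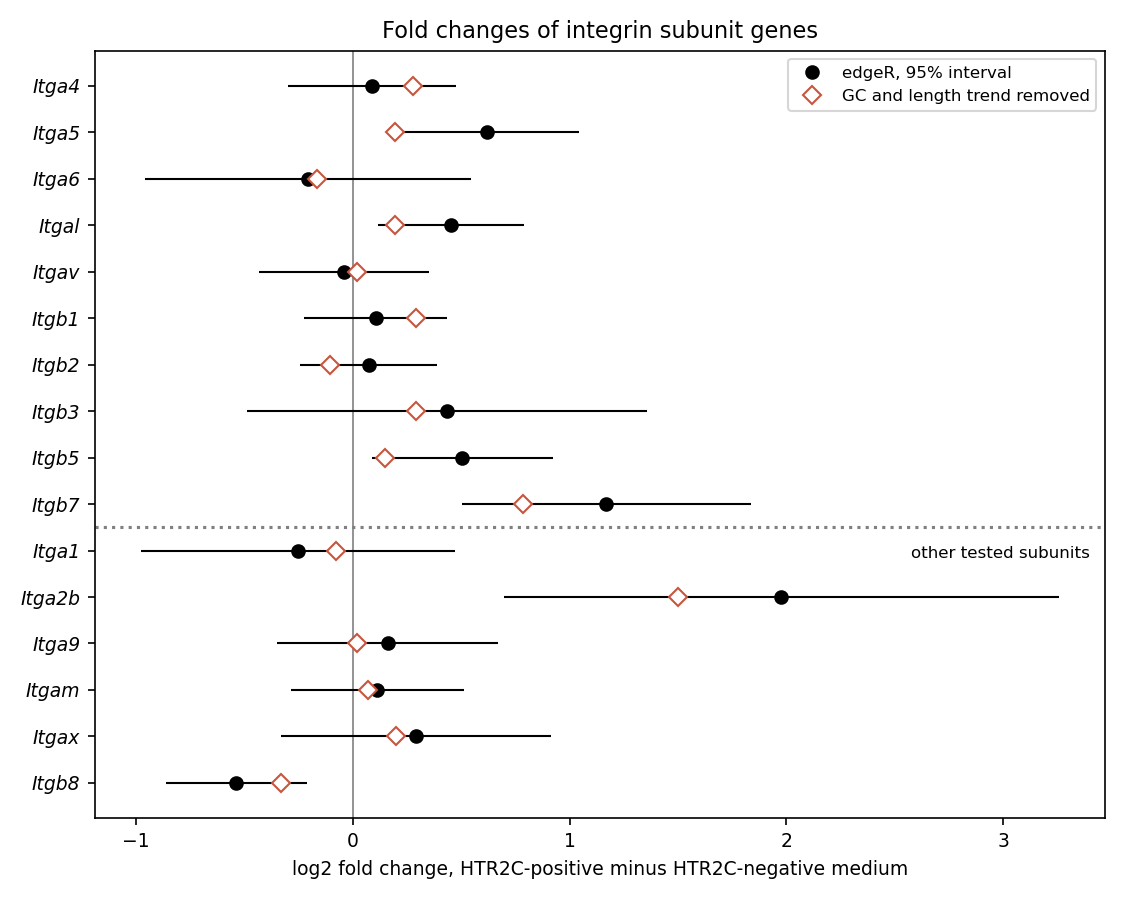
Log2 ratio (HTR2C-positive minus HTR2C-negative medium) of the 10 integrin genes and, under the dotted line, of the 6 other tested subunits. Black points and lines are edgeR estimates with 95% intervals, and open diamonds are estimates after correction for GC content and length. The intervals of Itga5, Itgal, Itgb5 and Itgb7 lie above 0, and the diamonds of these genes lie nearer to 0, at 0.19, 0.20, 0.15 and 0.78.

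Fold changes followed the GC content of transcripts across all genes, and the integrin genes with higher values were GC-rich. The median log2 ratio was -0.28 in the quintile of tested genes with the lowest GC content and 0.41 in the quintile with the highest, which starts at 54.9% GC. Itgb7 (58.1%), Itga5 (57.0%) and Itgb5 (56.0%) belong to that top quintile, where 24.5% of genes were higher at an unadjusted p under 0.05, and Itgal is at 53.6%. Itgb2 (53.4%) and Itgb3 (51.7%) also lie above the median of all tested genes (49.3%), with log2 ratios of 0.07 and 0.44. Itgb1 (44.7%), Itga4 (43.5%), Itgav (46.9%) and Itga6 (47.2%) lie below it. After a correction for each library's GC and length trend, the log2 ratios were 0.78 for Itgb7 (adjusted p = 0.409), 0.19 for Itga5 (adjusted p = 0.736), 0.20 for Itgal (adjusted p = 0.690) and 0.15 for Itgb5 (adjusted p = 0.825). So 1 of the 10, Itgb7, had an unadjusted p under 0.05 on that scale, where 3.76% of all genes were higher and 6.01% lower. Itgb1 was then at 0.29 (adjusted p = 0.546), Itga4 at 0.28 (adjusted p = 0.665) and Itgb8 at -0.33 (adjusted p = 0.443). Whether the trend comes from library preparation or from the media was not tested.

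**Figure D3:**
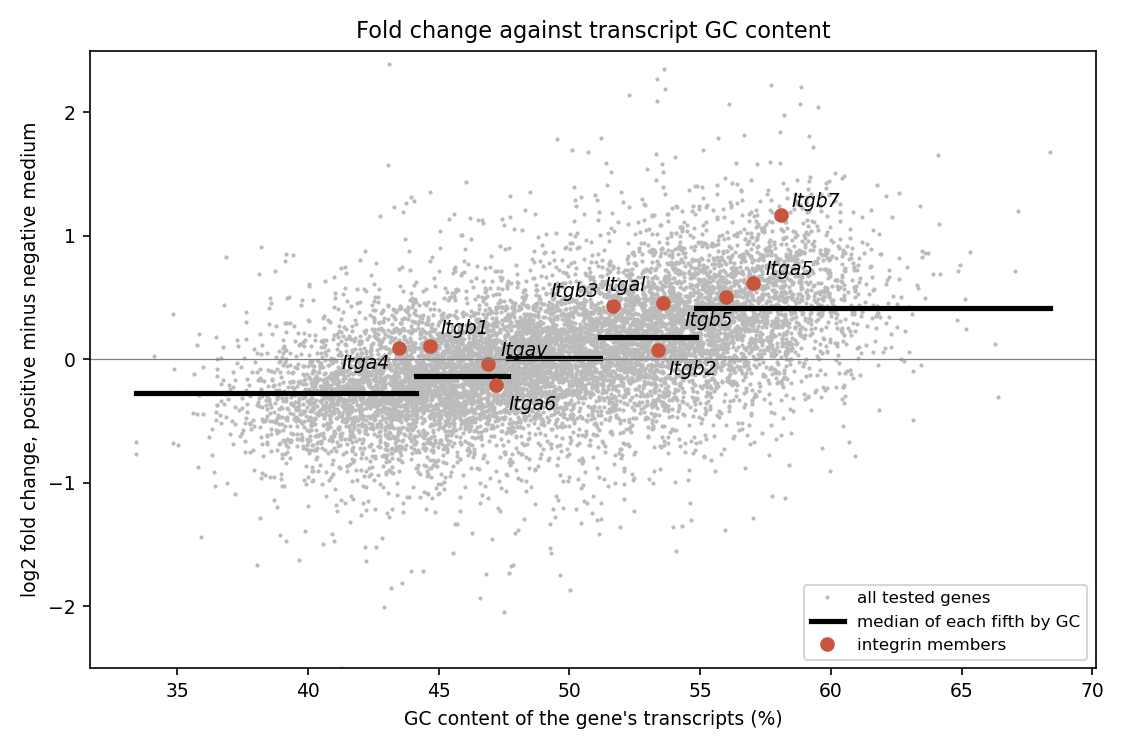
Log2 ratio (HTR2C-positive minus HTR2C-negative medium) against the GC content of each gene's transcripts for 10162 tested genes (grey), with the median of each quintile by GC content (black lines) and the 10 integrin genes (red). The axis stops at 2.5 either way, which leaves out 3 genes. Medians go from -0.28 to 0.41, and Itgb7 at 1.17 lies above the line of its quintile.

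The make-up of the 10 genes by chain can be read from shares of FPKM within a library, which need no scaling between libraries. Each sum holds only the 5 chosen genes of that chain. The sums leave out Itgam, whose mean of 35.2 FPKM is above that of every alpha gene among the 10. They also leave out Itgb8, whose mean of 8.34 FPKM is above that of Itgb5. Among the 5 beta genes Itgb2 made up 61.8% ± 2.41 with negative and 60.0% ± 4.28 with positive medium (SD, n = 3), and Itgb1 33.1% ± 2.82 and 32.7% ± 4.53. Itgb5 made up 4.06% ± 0.436 and 5.35% ± 0.832, with P053 (4.39%) below N053 (4.44%). Itgb7 made up 0.737%, 0.919% and 0.686% in the negative and 1.45%, 1.87% and 1.59% in the positive libraries, without overlap. Itgb3 made up at most 0.415% of the 5 beta genes in any library.

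Among the 5 alpha genes Itga5 and Itgal were the largest. Itga5 made up 35.1%, 42.9% and 32.8% with negative and 46.6%, 37.7% and 45.2% with positive medium, and the groups overlapped. Itgal made up 34.3% ± 0.642 and 35.5% ± 4.89, Itgav 17.4% ± 5.12 and 12.6% ± 2.52, Itga4 9.18% ± 0.674 and 7.32% ± 1.25, and Itga6 2.19% ± 0.495 and 1.44% ± 0.598. N052 and P051 had the lowest Itgav shares (11.7% and 9.82%). No test was made on these shares, and they carry the GC trend of their genes.

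**Figure D4:**
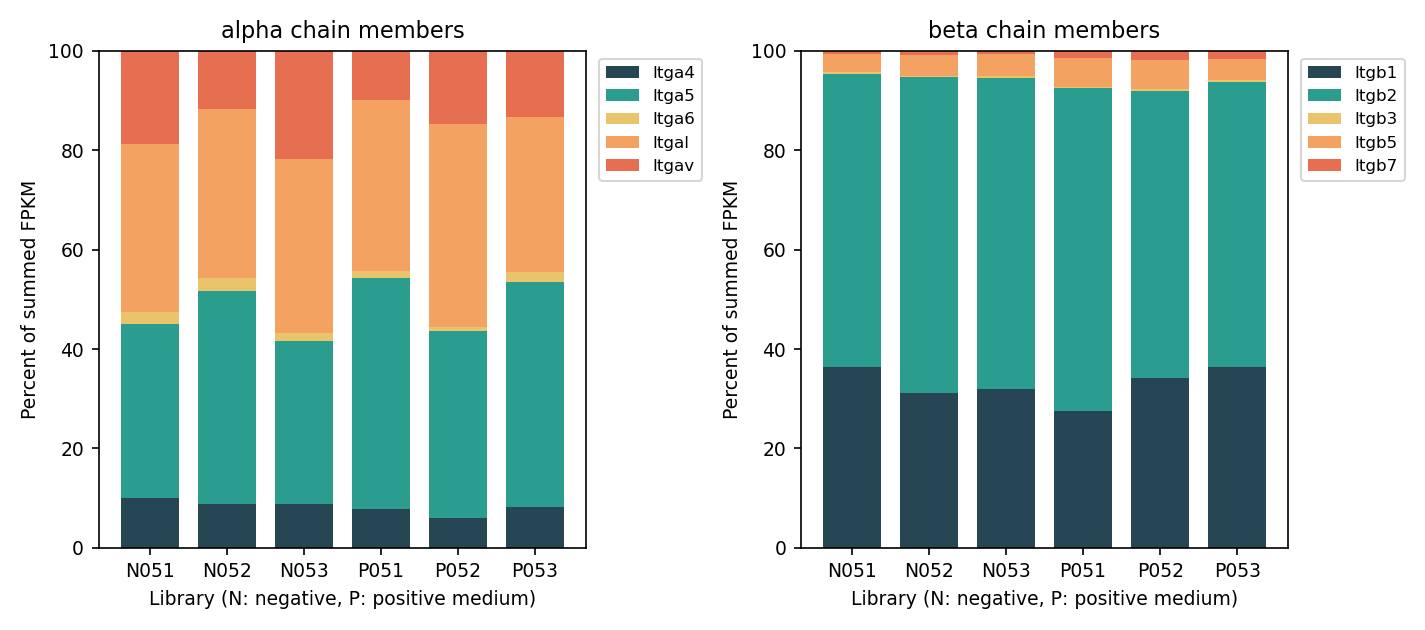
Share of each gene in the summed FPKM of the 5 alpha genes (left) and of the 5 beta genes (right), in percent, as stacked bars for each library. Itgb2 and Itgb1 fill most of each beta bar, and the Itgb7 segment at the top is 0.686% to 0.919% in the N libraries and 1.45% to 1.87% in the P libraries.

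Ratios of an alpha to a beta gene within a library, chosen after the data had been seen, compare transcripts of chains that pair in known receptors. Receptor protein was not measured. The FPKM ratio of Itga4 to Itgb7 was 4.31, 3.35 and 3.84 in the negative and 2.27, 1.22 and 1.96 in the positive libraries. That of Itgal to Itgb2 was 0.183, 0.188 and 0.167 against 0.223, 0.274 and 0.205. That of Itgav to Itgb8 was 0.602, 0.588 and 0.710 against 0.806, 1.00 and 0.880. Of 11 such ratios the groups did not overlap in these 3 and overlapped in 8. The latter include Itga5 to Itgb1 (0.367 ± 0.102 and 0.535 ± 0.154) and Itgam to Itgb2 (0.476 ± 0.0865 and 0.491 ± 0.130), as well as Itgax to Itgb2, Itga4, Itga6 and Itgav to Itgb1, and Itgav to Itgb5 and to Itgb3. For single genes, the groups did not overlap in 10.9% (higher) and 11.5% (lower) of all tested genes. Itgb7, Itgal and Itgb8, each in 1 of the 3 separate ratios, were also separate on their own. The share over ratios of other genes was not counted. The ratios were not tested and share the GC trend of their genes.

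There were 16 other integrin subunits, of which 6 could be tested. At an unadjusted p under 0.05 Itga2b had a higher and Itgb8 a lower value, against 7.90% and 8.71% of all tested genes. After adjustment 0 of them passed. Itga2b, the alpha chain of the platelet fibrinogen receptor, had 4, 7 and 6 counts with negative and 31, 20 and 31 with positive medium, a log2 ratio of 1.98 (standard error 0.59, adjusted p = 0.141). Of the other platelet markers, Gp9 was near 0 yet also separate, at 0 to 0.14 CPM with negative and 0.29 to 0.40 CPM with positive medium. Ppbp lay in the other direction (9.42 to 11.4 and 7.37 to 8.33 CPM), and Pf4 overlapped (441 to 473 and 450 to 617 CPM). Their part in the Itga2b values was not tested. Itga9, a receptor chain for tenascin and osteopontin, was at 10.4 ± 1.40 and 11.7 ± 2.71 CPM, and Itga1, a collagen receptor chain, at 4.64 ± 0.825 and 3.89 ± 1.35 CPM. The untested ones had at most 26 counts in any library, the highest being Itga2 in P053, and include the epithelial chains Itgb4, Itgb6 and Itga3.

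The proteins that bind integrins or relay their signals were taken from lists. Counted with the other subunits above, 23 of these 147 tested genes were higher and 7 lower before adjustment, where 7.90% of all tested genes were higher and 8.71% lower. Corrected for GC content and length, 5 were higher and 10 lower, near the shares of all genes (3.76% and 6.01%). After adjustment for all genes, without that correction, 0 were called by edgeR or limma-voom. DESeq2 called 5 higher and 4 lower, where it called 5.77% of all genes to which it gave an adjusted p. Leaving out N051, 11 were higher before adjustment, but the share of all genes was not counted in that setting. Of 33 tested ligand genes, 3 were higher and 0 lower before adjustment (median log2 ratio 0.24), a share near that of all genes, and 0 were higher and 1 lower GC-corrected (median 0.02). Mfge8, a bridge from dying cells to Itgav receptors, was at 17.7 ± 2.51 and 28.6 ± 6.09 CPM, a log2 ratio of 0.69 (0.27 after that GC correction). Lgals3bp had 0.44 (0.10 GC-corrected). Icam1, the cell surface ligand of the Itgal receptor, was at 52.4, 96.9 and 56.8 CPM with negative and 204, 71.8 and 78.3 CPM with positive medium. Its P051 library stood apart, and the log2 ratio of 0.78 was 0.15 without it. The fourth by p of those averaging 2 CPM or more, the collagen gene Col1a1, had 0.50 (adjusted p = 0.384), and 0.04 GC-corrected. Edil3, just below that level, had a smaller p and the other direction, at -0.98 (adjusted p = 0.313).

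Of 15 tested activators of integrins, 2 were higher and 0 lower before adjustment (median 0.04), against 7.90% and 8.71% of all genes, and 0 were higher or lower GC-corrected (median 0.05). Tln1, which encodes talin, was at 38.1, 69.1 and 54.9 CPM with negative and 82.9, 84.8 and 90.7 CPM with positive medium. All positive libraries lay above the negative ones, and the log2 ratio was 0.67 (standard error 0.19, adjusted p = 0.135), or 0.29 after that GC correction. Fermt3, the kindlin of blood cells, was at 97.0 ± 24.8 and 139 ± 26.7 CPM with overlapping groups (0.52, and 0.12 GC-corrected). Skap2 and Rapgef1 had log2 ratios of -0.23 and 0.38, which became 0.04 and -0.05 GC-corrected.

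Of 13 tested inactivators and tail-binding competitors, 4 were higher and 1 lower (median 0.16), against 7.90% and 8.71% of all genes. GC-corrected, 1 was higher and 1 lower (median 0.04). Krit1, which binds the integrin partner ICAP1, was at 154 ± 29.3 and 92.3 ± 9.97 CPM, a log2 ratio of -0.74 (standard error 0.17, adjusted p = 0.0844, and -0.43 GC-corrected). Flna, the filamin gene whose protein competes with talin for beta tails, was at 104, 120 and 118 CPM with negative and 148, 196 and 192 CPM with positive medium. The positive libraries lay clear of the negative ones, with a log2 ratio of 0.65 (standard error 0.16, adjusted p = 0.0908) and 0.37 GC-corrected. Dok1, another competitor for the tail, had 0.67 (0.31 GC-corrected). Dok1 was highest in P051, at 34.5 CPM, and its groups overlapped, with a log2 ratio of 0.28 without that library. The Rap1 inhibitor Sipa1, also with a higher value, had 0.75 and is named here after its value was seen.

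Of 35 tested genes of the adhesion complex, 7 were higher and 1 lower (median 0.23), against 7.90% and 8.71% of all genes. GC-corrected, 1 was higher and 1 lower (median 0.09). Ptk2b, the focal adhesion kinase of blood cells, was at 30.1, 38.2 and 35.6 CPM with negative and 57.0, 57.8 and 57.8 CPM with positive medium. The positive libraries were nearly equal and lay above all negative ones. Its log2 ratio was 0.73 (standard error 0.15, adjusted p = 0.0805), and 0.51 GC-corrected (adjusted p = 0.272). Vasp (0.63), Actn4 (0.64) and Src (0.55), which encode an actin regulator, an actin cross-linker and a kinase, also had separate groups, with 0.21, 0.24 and 0.03 GC-corrected. The gene with a lower value was Lims1, the adaptor PINCH, at -0.41, named after its value was seen.

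Of 21 tested membrane partners, 3 were higher and 0 lower (median 0.23), against 7.90% and 8.71% of all genes. GC-corrected, 1 was higher and 1 lower (median 0.02). The tetraspanin gene Tspan32 was low, at 0.177, 1.51 and 0.471 CPM with negative and 2.80, 4.57 and 2.54 CPM with positive medium, a log2 ratio of 2.15 (standard error 0.61, adjusted p = 0.129). Without single libraries it was 1.73 (N051 left out) to 3.27 (N052 left out). Sdc3, a syndecan, had 0.60 (0.09) and Tyrobp, an adaptor used by Itgb2 receptors, 0.43 (0.10). Cd82, another tetraspanin, had 0.81 (adjusted p = 0.335) and 0.24 without P051, which was at 53.6 CPM.

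Of 18 tested genes of integrin traffic, 2 were higher and 2 lower (median 0.05), against 7.90% and 8.71% of all genes. GC-corrected, 1 was higher and 3 lower (median 0.11), against 3.76% and 6.01% of all genes. The endosome genes Rab5a and Rab7 were at 85.9 ± 6.23 and 62.3 ± 3.89 CPM and at 701 ± 26.8 and 533 ± 57.6 CPM, with log2 ratios of -0.46 and -0.40 (-0.30 and -0.35 GC-corrected). The clathrin light chain gene Clta had 0.41 and Snx17, whose protein binds beta tails in endosomes and returns the receptors to the surface, 0.58 (0.18 and 0.38). Snx17 was highest in P051, at 64.5 CPM, and its log2 ratio was 0.27 without that library. Of 6 tested genes of folding and cleavage, 1 was higher and 2 lower (median 0.16), against the same 7.90% and 8.71%. GC-corrected, 0 were higher and 2 lower (median -0.20), against 3.76% and 6.01%. Canx, the chaperone calnexin, was at 2776 ± 808 and 1513 ± 272 CPM (-0.88, adjusted p = 0.0985). Hsp90b1, the chaperone on which integrin folding depends, was at 191 ± 32.4 and 128 ± 2.04 CPM (-0.57, adjusted p = 0.119). Both kept these signs GC-corrected, at -0.61 and -0.32. The convertase gene Pcsk7 had 0.64 (adjusted p = 0.176 by edgeR), and 0.29 GC-corrected. Calr had 0.26, and 0.11 without P053 to 0.52 without P051.

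**Figure D5:**
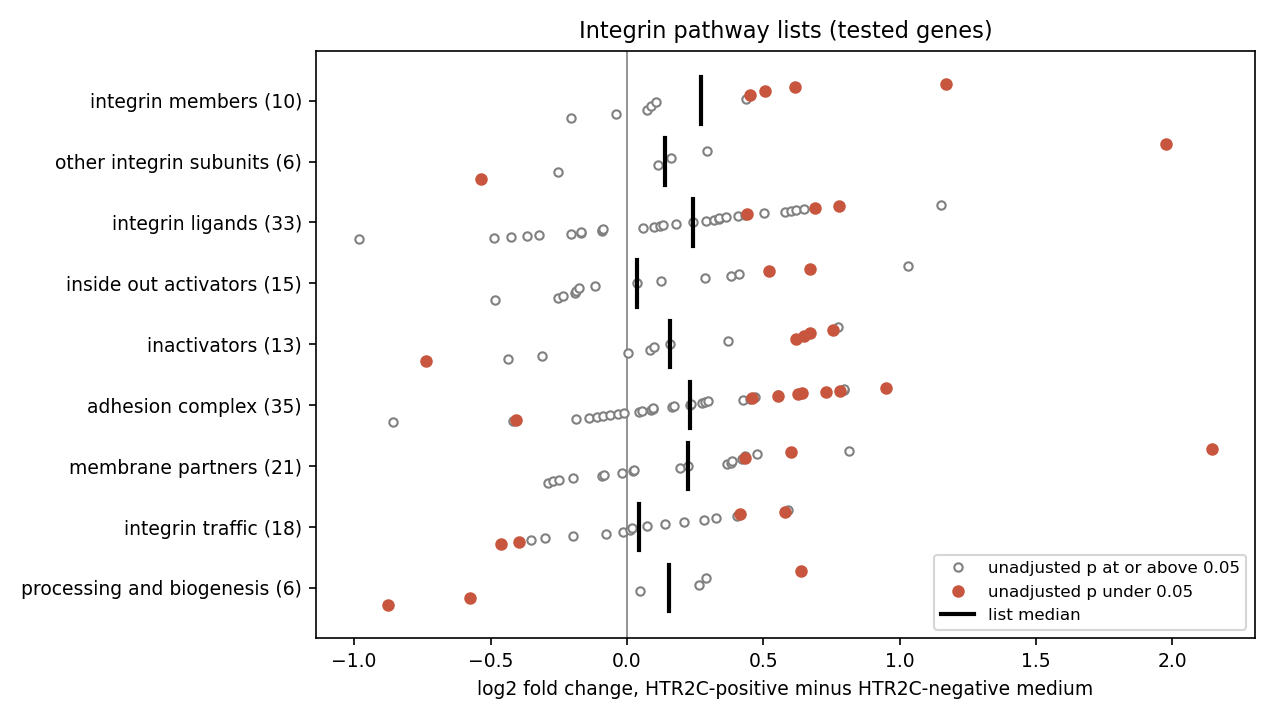
Log2 ratio (HTR2C-positive minus HTR2C-negative medium) of each tested gene of the integrin lists, with the number tested in brackets. Red points have an unadjusted p under 0.05, open points do not, and black bars are list medians, which lie between 0.04 and 0.27. After adjustment 0 passed.

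Likeness to Itgb7 was measured by the correlation of log2 CPM over the 6 libraries, for 6562 genes whose mean reached 5 CPM. The 3 most alike were Rbpj, the transcription factor of Notch signalling (r = 0.998), the ribosomal protein gene Rpl11 (r = 0.997) and Crtc2, a coactivator of CREB (r = 0.992). Rbpj was at 46.5 ± 1.85 and 55.1 ± 1.34 CPM, so its pattern was similar and its change much smaller, at 0.24 on the log2 scale. These are the highest of many coefficients over few libraries and carry no test.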

How the data were processed

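The authors deposited read counts per gene, whole numbers with no normalization per the file headers, and FPKM values, which equal the count over gene length and library total (largest relative difference 3.80e-07). Tools named there, per the submitters' processing notes, are HISAT2, fastp, edgeR and StringTie, with the build GRCm39. The annotation, strand use and handling of multiply mapped reads were not stated. Counts were tested in R 4.3.3 with edgeR 4.0.16 (filterByExpr, TMM factors, robust quasi-likelihood F test, 2 groups of 3, no covariate), with Benjamini-Hochberg adjustment over 10177 genes and a threshold of 0.05. CPM are TMM-scaled, SE and 95% intervals come from the same fit, and the test was checked on simulated data. DESeq2 1.42.0 and limma 3.58.1 were alternatives, with other scalings and filters, the replicate number as a block, libraries left out, and each library's spline trend with GC content (GENCODE M21 transcripts, used for this alone) and length removed. The integrin genes and the lists were chosen with earlier results of these data known. Named genes are the 10 integrin genes, the other tested subunits and up to 4 genes of each list with the smallest p and a mean of at least 2 CPM. A gene that this rule names among the inactivators is counted but not reported here.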

Additional observations from a re-analysis of the deposited data

How the results depend on the processing

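Of 160 alternative values of the 10 integrin fold changes, 143 kept their direction and side of the threshold, 6 passed it and 11 changed sign, the last all in Itga6, Itgav and Itgb2, whose fold changes were near 0 against their SE. For the other 34 named genes the numbers were 487, 51 and 6 of 544. A value without an adjusted p, as for Itgb3 and Itgb7 with DESeq2, was counted as not past the threshold. Leaving out single libraries gave log2 ratios of -0.50 to 0.084 for Itga6, -0.18 to 0.13 for Itgav, -0.0027 to 0.14 for Itgb2 and -0.050 to 0.29 for Itgam. Without both N052 and P051 Itga6 was at 0.015. Total counts alone put Itgav at 0.10. Corrected for the GC and length trend, Itgav was at 0.019, Itgb2 at -0.10, Skap2 at 0.038 and Rapgef1 at -0.050. With the replicate block in addition Itgav was at 0.028, Itgb2 at -0.10, Skap2 at 0.032, Rapgef1 at -0.047 and Col1a1 at -0.0027. The cause was not tested. Adjusted calls among the 10 were 0 by edgeR, 2 with no count filter, 3 without both N052 and P051 (all higher), and 0 to 1 when single libraries were left out. Their unadjusted calls, 4 higher, were 2 to 4 without single libraries (2 without N051 and 2 without P052), and 1 corrected for GC and length, with or without the replicate block. Adjusted calls among the list genes and other subunits were 0, but 11 higher and 2 lower with no count filter, 5 and 4 with DESeq2, 21 and 9 without both N052 and P051, and 0 to 4 and 0 to 3 without single libraries. Their unadjusted calls, 23 higher and 7 lower, were 40 and 13 without both libraries, 5 higher and 10 lower when so corrected, 5 and 5 with the block in addition, 4 lower with total counts alone, and 11 to 34 higher without single libraries (11 without N051). Before adjustment 7.90% of all genes were higher and 8.71% lower, and 3.76% and 6.01% when corrected for GC and length. For the other settings the unadjusted share of all genes was not counted, so a rise or fall there is not a result about the list genes. Over all genes, no count filter called 2.84% after adjustment, DESeq2 5.77%, leaving out N052 1.97%, leaving out P051 1.80% and leaving out both 10.9%. Total counts alone moved the median of all genes to 0.16. Same-numbered libraries of the groups did not deviate together (r = -0.15, -0.23 and 0.05), and N052 lay closest to P051 (r = 0.31), so the numbers were not taken to pair the libraries. The replicate block gave 0 adjusted calls and a log2 ratio of 1.18 for Itgb7 (adjusted p = 0.358). Shares taken from read counts, not per length, were, with negative and positive medium, 17.3% and 14.7% for Itga4, 24.7% and 30.6% for Itga5, 2.71% and 1.88% for Itga6, 30.4% and 33.5% for Itgal, 25.0% and 19.4% for Itgav, 39.5% and 39.0% for Itgb1, 55.2% and 53.6% for Itgb2, 0.445% and 0.553% for Itgb3, 4.22% and 5.57% for Itgb5 and 0.633% and 1.32% for Itgb7. Depth limits Itgb3, Itgb7 and Itga2b, with at most 95 counts in a library.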
